A study of Mus musculus with 6 samples.

Results

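The noradrenergic genes were followed in N2a cells, a mouse neuroblastoma line, after the ferroptosis inducer RSL3. They comprise the enzymes of noradrenaline synthesis Dbh, Th and Ddc, the vesicle transporter gene Slc18a2, and the transcription factor genes Phox2a, Hand2, Gata2 and Gata3. Members were taken by gene symbol from the mRNA tables: 7 of the 8 named genes had a row among 11609 listed genes, and Ddc, which had none, is not analysed here. Of the 7, 6 had at least 1 FPKM (fragments per kilobase of transcript, scaled to library size) in at least 3 of 6 libraries and were tested. All cells had been differentiated with 10 µM retinoic acid for 96 h in medium with 2% serum. The RSL3 group (n = 3 libraries) then received RSL3, which blocks the lipid peroxide-reducing enzyme GPX4, at 5 µM for 24 h, and the DMSO group (n = 3) received the solvent alone. The comparison asks how induction of ferroptosis changed the transcriptome of these neuron-like cells. All libraries come from 1 cell line, and the labels do not say whether those of a group were separate cultures, so p-values measure only the spread between these libraries.

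Noradrenaline is made from tyrosine in steps. Tyrosine hydroxylase (Th) forms L-DOPA and is the rate-limiting enzyme, aromatic L-amino acid decarboxylase (Ddc) turns this into dopamine, and the vesicular monoamine transporter VMAT2 (Slc18a2) loads dopamine into vesicles. Dopamine β-hydroxylase (Dbh), a copper enzyme inside the vesicle, makes noradrenaline there and so marks a noradrenergic cell. In sympathetic neurons the homeodomain factor Phox2a, the basic helix-loop-helix factor Hand2 and the zinc finger factors Gata2 and Gata3 keep one another and these enzymes expressed. The same factors form the core regulatory circuit of adrenergic neuroblastoma.

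The 3 promoters below belong to the members of synthesis and storage and are shown because these genes were the lowest of the set in both groups. Each is the stretch from 250 bases before to 30 bases after the RefSeq transcription start (GRCm38.p6). Capitals mark matches, on either strand, to the homeodomain core ATTA, the GATA core GATAA, the E-boxes CAGCTG and CATCTG, the cyclic AMP element TGACGTCA, the AP-1 site TGANTCA or the antioxidant element core TGACNNNGC.
Dbh, chr2:27165257-27165536, plus strand: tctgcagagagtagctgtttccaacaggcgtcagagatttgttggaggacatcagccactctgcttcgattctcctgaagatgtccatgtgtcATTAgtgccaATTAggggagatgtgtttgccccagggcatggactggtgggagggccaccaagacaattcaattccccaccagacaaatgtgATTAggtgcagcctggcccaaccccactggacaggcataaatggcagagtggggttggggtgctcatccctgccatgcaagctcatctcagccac
Th, chr7:142899966-142900245, minus strand: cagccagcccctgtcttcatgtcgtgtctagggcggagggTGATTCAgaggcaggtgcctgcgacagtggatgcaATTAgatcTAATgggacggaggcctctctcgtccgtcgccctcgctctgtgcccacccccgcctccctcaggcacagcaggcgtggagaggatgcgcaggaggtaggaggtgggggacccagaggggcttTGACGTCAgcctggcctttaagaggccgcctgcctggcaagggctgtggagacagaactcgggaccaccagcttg
Slc18a2, chr19:59260628-59260907, plus strand: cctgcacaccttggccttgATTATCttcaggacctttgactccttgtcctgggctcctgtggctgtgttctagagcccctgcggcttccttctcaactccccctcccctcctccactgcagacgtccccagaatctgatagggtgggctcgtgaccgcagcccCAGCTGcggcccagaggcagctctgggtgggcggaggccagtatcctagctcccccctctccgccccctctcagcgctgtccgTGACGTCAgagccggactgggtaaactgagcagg
In the Dbh promoter, ATTA lay at 3 places, beginning 157, 147 and 65 bases before the start. The Th promoter held ATTA at 175 and, on the other strand, at 167 bases before the start, an AP-1 match at 210 and a full TGACGTCA at 45. In the Slc18a2 promoter ATTA at 231 overlapped a GATAA on the other strand, CAGCTG began at 87, and TGACGTCA began 4 bases before the start and ran across it. Among 32851 RefSeq windows of this length, 56.8% held ATTA, 24.4% GATAA, 14.9% CAGCTG, 16.1% CATCTG, 7.46% TGANTCA, 11.5% TGACNNNGC and 1.74% TGACGTCA. These matches are a description of letters and not of binding. The GENCODE annotation starts the Dbh gene at 27165233, upstream of the RefSeq start at 27165507. It starts Th, on the minus strand, at 142931128, far upstream of the RefSeq start at 142899995. For Slc18a2 the starts are 59260896 in GENCODE and 59260878 in RefSeq.

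The libraries were first compared as a whole. Summed mRNA FPKM ran between 200135 and 213765 in RSL3 libraries and between 220605 and 225295 in DMSO libraries, and 2 lncRNAs that overlap ribosomal RNA repeats, Gm26917 and Gm42418, summed to 26639 to 33129 FPKM in RSL3 libraries and 18793 to 22979 FPKM in DMSO libraries. RSL3 replicates 1 and 2 were opposite extremes of their group in base composition. Across genes, which are not independent, how far an RSL3 library lay from the mean of the other RSL3 libraries correlated with transcript GC content at 0.646 for replicate 1, -0.607 for replicate 2 and -0.238 for replicate 3. Counts of calls over the members and pathway lists are given also without RSL3 replicate 1 where they differ. The total over the pathway lists is given also without RSL3 replicate 2. Of 12 neuron markers 8 had a row and were tested, with a median log2 fold change of -0.23, and Nefl, Nefm, Dcx and Rbfox3 had none. In 4 of the 8 (Stmn2, Gap43, Elavl4 and Snap25) every RSL3 library was below every DMSO library, and in none was it above. Of all tested mRNAs, 19.6% had every RSL3 library below every DMSO library. Adjusted p in limma was 0.0181 for Gap43, 0.0735 for Elavl4, 0.105 for Stmn2 and 0.313 for Snap25. The tubulin gene Tubb3 had 115 ± 2.25 FPKM in RSL3 libraries and 116 ± 1.02 FPKM in DMSO libraries (SD, n = 3 each). In limma, on log2(FPKM + 1), 676 of 10590 tested mRNAs passed an adjusted p of 0.05, of which 261 (2.46% of those tested) were higher and 415 (3.92%) lower in RSL3 libraries. Under quantile normalization the split was 346 higher and 332 lower.

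Both tested genes of noradrenaline production, Dbh and Slc18a2, were lower after RSL3, and no member was higher. The 4 transcription factor genes did not pass in the fit to all 6 libraries. The 2 lower members of 6 tested stand against 3.92% of all tested mRNAs. At an unadjusted p under 0.05 limma gave 3 of the 6 lower and none higher, against 14.3% of all tested mRNAs lower at that level. The members' median log2 fold change was -0.22, and that of all tested mRNAs -0.03, beside the -0.23 of the neuron markers. In bulk libraries fewer cells expressing a gene and less RNA per cell cannot be told apart.

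**Figure D1:**
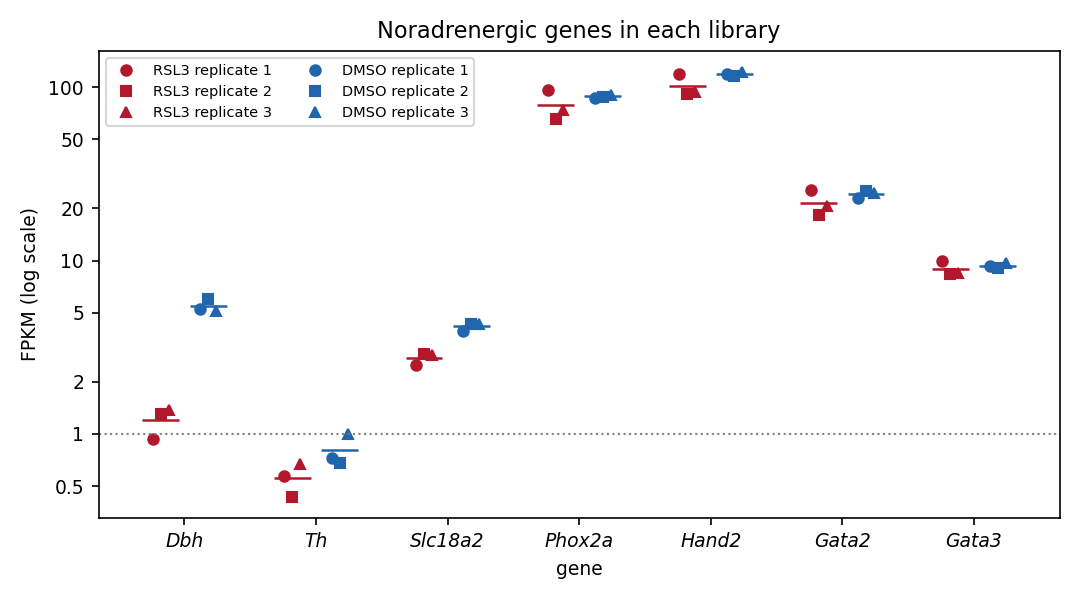
FPKM (log axis) of the 7 listed members in each library, with RSL3 in red on the left and DMSO in blue on the right of each gene, symbols for the replicate number, short lines for group means and a dotted line at 1 FPKM. Dbh, Th and Slc18a2 had RSL3 libraries below every DMSO library, and the 4 transcription factor genes overlapped between groups.

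Dbh (ENSMUSG00000000889.8, chromosome 2, 27165233 to 27183200, plus strand, GRCm38) had 0.931, 1.31 and 1.37 FPKM in RSL3 libraries 1 to 3, against 5.29, 6.0 and 5.10 FPKM in DMSO libraries 1 to 3. Every RSL3 library was below every DMSO library, and the gap was far wider than the spread within either group. The mean was 1.21 ± 0.24 FPKM in RSL3 libraries and 5.46 ± 0.48 FPKM in DMSO libraries (SD, n = 3 each), a ratio of 0.221 of RSL3 over DMSO. On the log2(FPKM + 1) scale the difference was -1.55 (SE 0.11, 95% interval -1.81 to -1.30), with an adjusted p of 0.0023 in limma. This scale understates the change of so low a gene: with a pseudocount of 0.1 the difference was -2.11. Dbh had the 18th lowest log2 fold change of 10590 tested mRNAs. It reached 1 FPKM in 5 of the 6 libraries, and it passed in all 15 alternative fits, with differences between -2.11 and -1.46. In the fit with the stricter filter (at least 5 FPKM) it was tested only through its DMSO libraries, so that fit adds no separate support. The main filter was also met by its DMSO libraries alone, as RSL3 replicate 1 was below 1 FPKM.

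Liver marker genes were also lower in RSL3 libraries. Of 10 liver genes, such as albumin (Alb), all had a row. All 9 that were tested were called lower in limma, with a median log2 fold change of -1.3, against 3.92% of all tested mRNAs called lower. Of the 9, Serpina1a reached 1 FPKM in DMSO libraries only, so it was tested only through the group where it was high. Calls numbered 3 of 8 tested without DMSO replicate 2, 4 of 8 without DMSO replicate 3 and 6 of 9 without RSL3 replicate 3. FPKM of the 10 liver genes summed to 31.5, 28.0 and 16.9 in RSL3 libraries 1 to 3. In DMSO libraries 1 to 3 the sums were 70.4, 99.6 and 88.25. Within the RSL3 group the sum was highest in replicate 1, where Dbh was lowest, and lowest in replicate 3, where Dbh was highest. Within the DMSO group the sum and Dbh were both highest in replicate 2, and the sum was lowest in replicate 1 and Dbh in replicate 3. Among markers of the adrenal cortex, which lies beside noradrenaline-producing chromaffin cells, only Star of 5 had a row, at 1.12 to 1.37 FPKM in RSL3 libraries and 1.15 to 1.69 FPKM in DMSO libraries. Neither the source of the liver marker RNAs nor their part in the Dbh result was tested.

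Slc18a2 (ENSMUSG00000025094.7, chromosome 19, 59260896 to 59296012, plus strand) had 2.50, 2.89 and 2.85 FPKM in RSL3 libraries 1 to 3, against 3.93, 4.32 and 4.31 FPKM in DMSO libraries 1 to 3. The groups did not overlap, and the step was smaller than that of Dbh. The log2 fold change was -0.47 (SE 0.086, adjusted p = 0.0227 in limma), for means of 2.75 ± 0.22 FPKM in RSL3 libraries and 4.19 ± 0.22 FPKM in DMSO libraries. The call did not hold without DMSO replicate 1, 2 or 3 (adjusted p = 0.0892, 0.12 and 0.112 in limma) nor without RSL3 replicate 3 (0.0799), while the difference kept between -0.51 and -0.42 when any 1 library was left out. Groups of the 2 called members did not overlap, which held, with RSL3 lower, for 19.6% of all tested mRNAs.

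The order of the 2 genes of the vesicle turned over between the groups. In each RSL3 library Slc18a2 was above Dbh, and in each DMSO library Dbh was above Slc18a2. Log2 of the Dbh to Slc18a2 ratio was -1.42, -1.14 and -1.05 in RSL3 libraries and 0.43, 0.48 and 0.24 in DMSO libraries. These do not overlap, and an exact two-sided permutation test gave p = 0.1, the smallest that 3 against 3 libraries allow. The ratio was chosen after this order was seen, which fixed that p-value beforehand, so it adds no support.

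Th (ENSMUSG00000000214.11, chromosome 7, 142892752 to 142931128, minus strand) was the lowest member in both groups. It had 0.569, 0.435 and 0.676 FPKM in RSL3 libraries 1 to 3, against 0.730, 0.684 and 0.997 FPKM in DMSO libraries 1 to 3. All RSL3 values were below all DMSO values, by a margin as small as the step between 0.676 and 0.684 FPKM. No library reached 1 FPKM, so Th was outside the test. In a limma fit with no filter on low values its difference was -0.21 on the log2(FPKM + 1) scale (adjusted p = 0.25), and the exact two-sided permutation test gave the smallest possible p of 0.1. By mean FPKM among the 11609 listed genes Th ranked 11334 in RSL3 libraries and 10826 in DMSO libraries, and Hand2 ranked 309 in RSL3 libraries and 286 in DMSO libraries.

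Among the transcription factors, Hand2 and Phox2a were the highest. Hand2 (ENSMUSG00000038193.4, chromosome 8, 57320983 to 57324633, plus strand), a basic helix-loop-helix factor needed for sympathetic neurons, had 118, 91.2 and 94.1 FPKM in RSL3 libraries 1 to 3, against 119, 116 and 122 FPKM in DMSO libraries 1 to 3. RSL3 replicate 1 lay within the range of the DMSO libraries and RSL3 replicates 2 and 3 lay below it. Over all 6 libraries the log2 fold change was -0.25 (SE 0.10, adjusted p = 0.192 in limma).

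Phox2a (ENSMUSG00000007946.11, chromosome 7, 101818313 to 101822726, plus strand), which binds homeodomain sites of the Dbh promoter, had 96.4, 65.3 and 73.9 FPKM in RSL3 libraries 1 to 3, against 86.7, 88.1 and 90.2 FPKM in DMSO libraries 1 to 3. Here RSL3 replicate 1 was above every DMSO library, and the other RSL3 libraries were below all of them. The log2 fold change was -0.19 (SE 0.13, adjusted p = 0.436 in limma).

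Gata2 (ENSMUSG00000015053.14, chromosome 6, 88193891 to 88207032, plus strand) had 25.6, 18.4 and 20.7 FPKM in RSL3 libraries 1 to 3, against 23.1, 25.3 and 24.6 FPKM in DMSO libraries 1 to 3. Its paralog Gata3 (ENSMUSG00000015619.10, chromosome 2, 9857078 to 9890034, minus strand), which maintains Th and Dbh in mouse sympathetic neurons, had 9.90, 8.34 and 8.53 FPKM in RSL3 libraries 1 to 3, against 9.27, 9.10 and 9.72 FPKM in DMSO libraries 1 to 3. In both, RSL3 replicate 1 was the highest of all 6 libraries and the other RSL3 libraries were the lowest. The log2 fold changes were -0.18 for Gata2 (SE 0.12, adjusted p = 0.403) and -0.07 for Gata3 (SE 0.085, adjusted p = 0.688), both in limma.

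**Figure D2:**
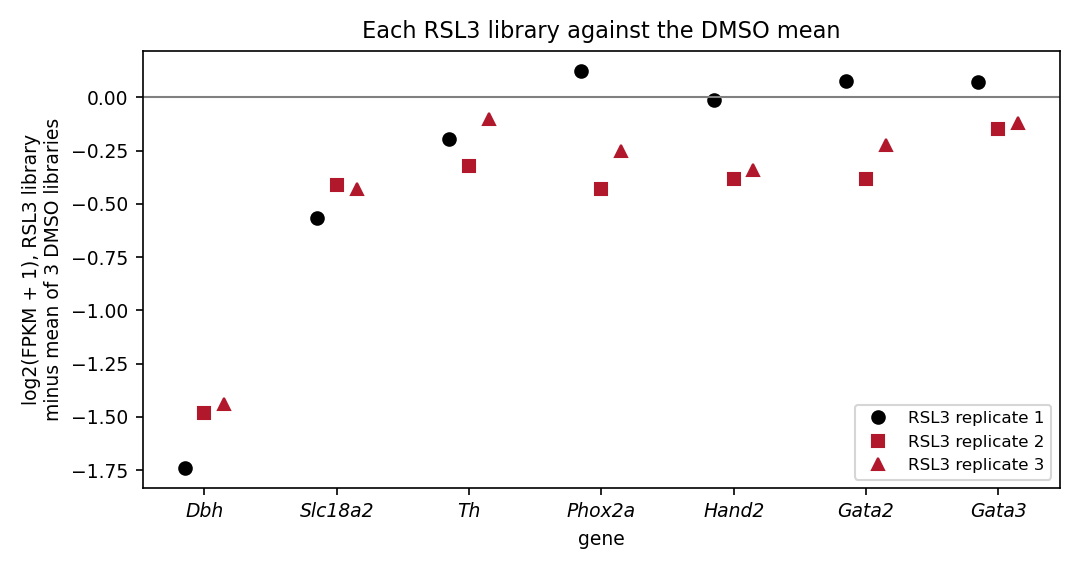
Difference of each RSL3 library from the mean of the 3 DMSO libraries on the log2(FPKM + 1) scale, for the 7 listed members, with RSL3 replicate 1 in black. All 3 RSL3 libraries lay far below the DMSO mean for Dbh, between -1.74 and -1.44, while for Phox2a replicate 1 was at 0.12 and replicate 2 at -0.43.

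Without RSL3 replicate 1 the transcription factors were called differently. Hand2 then differed by -0.36 (adjusted p = 0.00761), Phox2a by -0.34 (adjusted p = 0.0213) and Gata2 by -0.31 (adjusted p = 0.0415), all in limma, and Gata3 by -0.14 (adjusted p = 0.183). With Dbh at -1.46 and Slc18a2 at -0.42, 5 of the 6 tested members were lower in that fit, against 7.18% of 10525 mRNAs tested in it. The same 5 passed when trends of transcript length and GC content were removed from each library, where 7.83% of 10590 mRNAs were lower, with differences of -0.37 for Hand2, -0.28 for Phox2a and -0.28 for Gata2. Without RSL3 replicate 2 the factors moved the other way, to -0.06 for Phox2a (adjusted p = 0.732 in limma), -0.08 for Gata2 (0.663), -0.18 for Hand2 (0.298) and -0.02 for Gata3 (0.883). Median transcript GC content was 60.4% for Phox2a, 59.3% for Hand2, 58.2% for Gata2 and 55.3% for Gata3, against 53.3% for Dbh and 45.0% for Slc18a2. Neither direction nor call of Dbh turned on RSL3 replicate 1. The part of base composition in the transcription factor results was not tested beyond these fits.

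**Figure D3:**
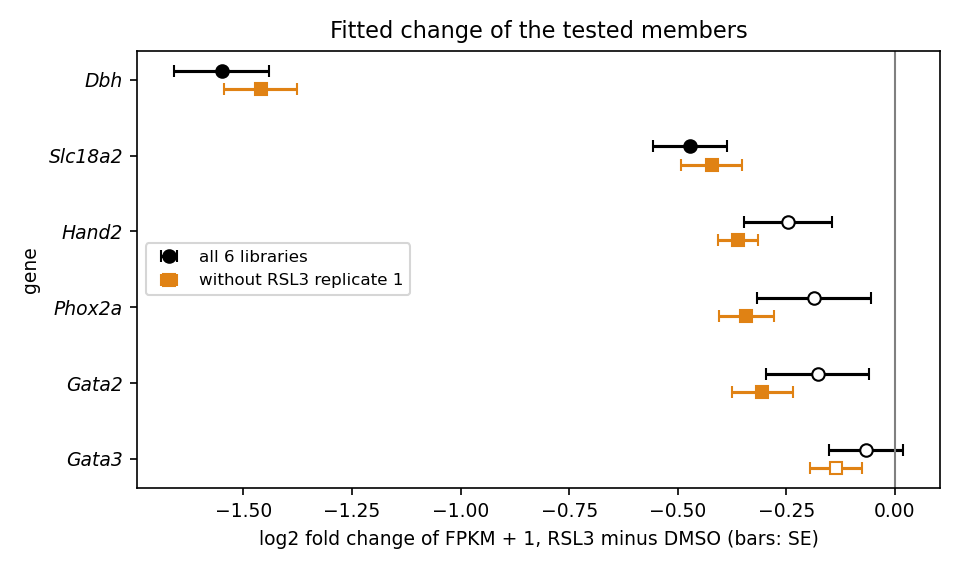
Log2 fold change of FPKM + 1, RSL3 minus DMSO, with SE bars, for the 6 tested members over all 6 libraries (black circles) and without RSL3 replicate 1 (orange squares), filled where the adjusted p was under 0.05. Dbh and Slc18a2 are filled in both fits, and Hand2, Phox2a and Gata2 are filled only without RSL3 replicate 1.

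In levels per length the members spanned a wide range. In DMSO libraries the order of mean FPKM was Hand2 (119), Phox2a (88.3), Gata2 (24.3), Gata3 (9.36), Dbh (5.46), Slc18a2 (4.19) and Th (0.803), and no neighbours in that order overlapped. In RSL3 libraries it was Hand2 (101), Phox2a (78.5), Gata2 (21.6), Gata3 (8.92), Slc18a2 (2.75), Dbh (1.21) and Th (0.560), and the libraries overlapped only between Hand2 and Phox2a. The 4 factors together summed to 250.3, 183 and 197 FPKM in RSL3 libraries 1 to 3, against 239, 239 and 247 FPKM in DMSO libraries 1 to 3. By root mean square difference of centred log2(FPKM + 1) values over the 6 libraries, a description with no test, Gata2 and Phox2a were the closest members (0.043), and Dbh was 0.55 from Slc18a2 and 0.69 to 0.77 from the factors.

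Log2 of the Gata2 to Gata3 ratio was 1.26 ± 0.12 in RSL3 libraries and 1.38 ± 0.087 in DMSO libraries (SD, n = 3 each), with overlap and an exact two-sided permutation p of 0.3. This ratio and that of Dbh to Slc18a2 were chosen after the values were seen, and for these 2 the adjusted p could not fall below 0.1.

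Of 21 other sympathoadrenal and neuroblastoma transcription factors, 13 had a row and were tested, 2 were lower and none higher, with a median log2 fold change of -0.11. These were Insm1 and Mycn. Insm1, a zinc finger factor of neuroendocrine differentiation, had 12.3, 12.0 and 11.5 FPKM in RSL3 libraries, against 19.7, 21.4 and 21 FPKM in DMSO libraries (log2 fold change -0.75, SE 0.067, adjusted p = 0.00313 in limma). Mycn, the oncogene amplified in many human neuroblastomas, had 3.45, 3.17 and 3.69 FPKM in RSL3 libraries, against 5.98, 5.74 and 5.77 FPKM in DMSO libraries (-0.62, SE 0.081, adjusted p = 0.00836). The Mycn call was lost without DMSO replicate 1, 2 or 3 (adjusted p = 0.0536, 0.0519 and 0.0526). The LIM homeodomain gene Isl1 differed by -0.25 (adjusted p = 0.198), with one RSL3 library inside the DMSO range, and Tfap2b had no row in the tables used here. Without RSL3 replicate 1 a further gene of the list, Pbx3, was lower (-0.27, adjusted p = 0.0313), which made 3.

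Among partners of the GATA and HAND factors, 13 of 17 genes were tested, 1 was lower and none higher, with a median of -0.07. That gene was Lmo1, a LIM-only adaptor, at 40.1, 34.8 and 33.7 FPKM in RSL3 libraries and 45.8, 47.7 and 48.6 FPKM in DMSO libraries (-0.38, SE 0.078, adjusted p = 0.0347 in limma). Its call did not hold when any 1 DMSO library (adjusted p = 0.125 to 0.148), RSL3 replicate 2 (0.0641) or RSL3 replicate 3 (0.119) was left out, nor under median-ratio scaling (0.0894), quantile normalization (0.0944) or without the variance trend (0.052). Without RSL3 replicate 1 the list had 3 lower genes, Lmo1 (-0.46, adjusted p = 0.00508) with Lmo4 (-0.39, 0.0254) and Id1 (-0.27, 0.0305). Ldb1, which bridges LIM-only and GATA proteins, differed by 0.06 (adjusted p = 0.687) and by -0.05 once length and GC trends were removed.

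Of the genes that supply and store noradrenaline, other than the members, 1 passed. Of 9 genes around tetrahydrobiopterin (BH4), the cofactor of Th, 8 were tested and none passed. Gch1, which starts BH4 synthesis, had 26.6, 27.2 and 29.1 FPKM in RSL3 libraries, against 29.6, 31.6 and 30.9 FPKM in DMSO libraries (-0.15, adjusted p = 0.211 in limma). Of 11 genes of storage, uptake and the copper and ascorbate supply of Dbh, 7 were tested and 1 was lower, with a median of -0.19. Chgb, a granin of the dense core vesicle, had 61.9, 62.1 and 54.4 FPKM in RSL3 libraries, against 101.5, 97.8 and 95.8 FPKM in DMSO libraries. With no overlap its log2 fold change was -0.72 (SE 0.070, adjusted p = 0.00377). Without RSL3 replicate 1 another granin gene, Chga, was also lower (-0.49, adjusted p = 0.00523). Cyb561, which regenerates ascorbate inside the vesicle, stood at 9.98, 9.82 and 8.56 FPKM in RSL3 libraries and 8.19, 7.09 and 7.83 FPKM in DMSO libraries (0.26, adjusted p = 0.13). The noradrenaline transporter gene Slc6a2 had no row.

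None of 5 tested breakdown genes of 9 passed in limma, and the median was 0.10. Without RSL3 replicate 1 the aldose reductase gene Akr1b3 was higher (0.46, adjusted p = 0.0076), and the median was 0.03. Maoa had no row, nor did any of 14 adrenergic and dopamine receptor genes. Of 18 genes of the mesenchymal neuroblastoma state, 7 were tested. Only the receptor gene Notch2 was higher, at 3.19, 3.20 and 3.33 FPKM in RSL3 libraries and 2.15, 2.47 and 2.36 FPKM in DMSO libraries (0.35, adjusted p = 0.0477), and it did not pass without any 1 DMSO library (0.14 to 0.204) nor without RSL3 replicate 2 (0.0691) or 3 (0.144). It also missed the threshold with a pseudocount of 0.1 (0.0509) and with length and GC trends removed (0.15). Over the pathway lists together, without the members, 56 of 112 genes were tested. Of these 5 were lower and 1 higher, and the median was -0.10, with 3.92% and 2.46% of all tested mRNAs called in these directions. Without RSL3 replicate 1, 9 pathway genes were lower and 2 higher. In that fit 756 (7.18%) of 10525 tested mRNAs were lower and 520 higher. Without RSL3 replicate 2, 5 pathway genes were lower and 0 higher, with 435 lower and 290 higher of 10504 tested mRNAs.

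**Figure D4:**
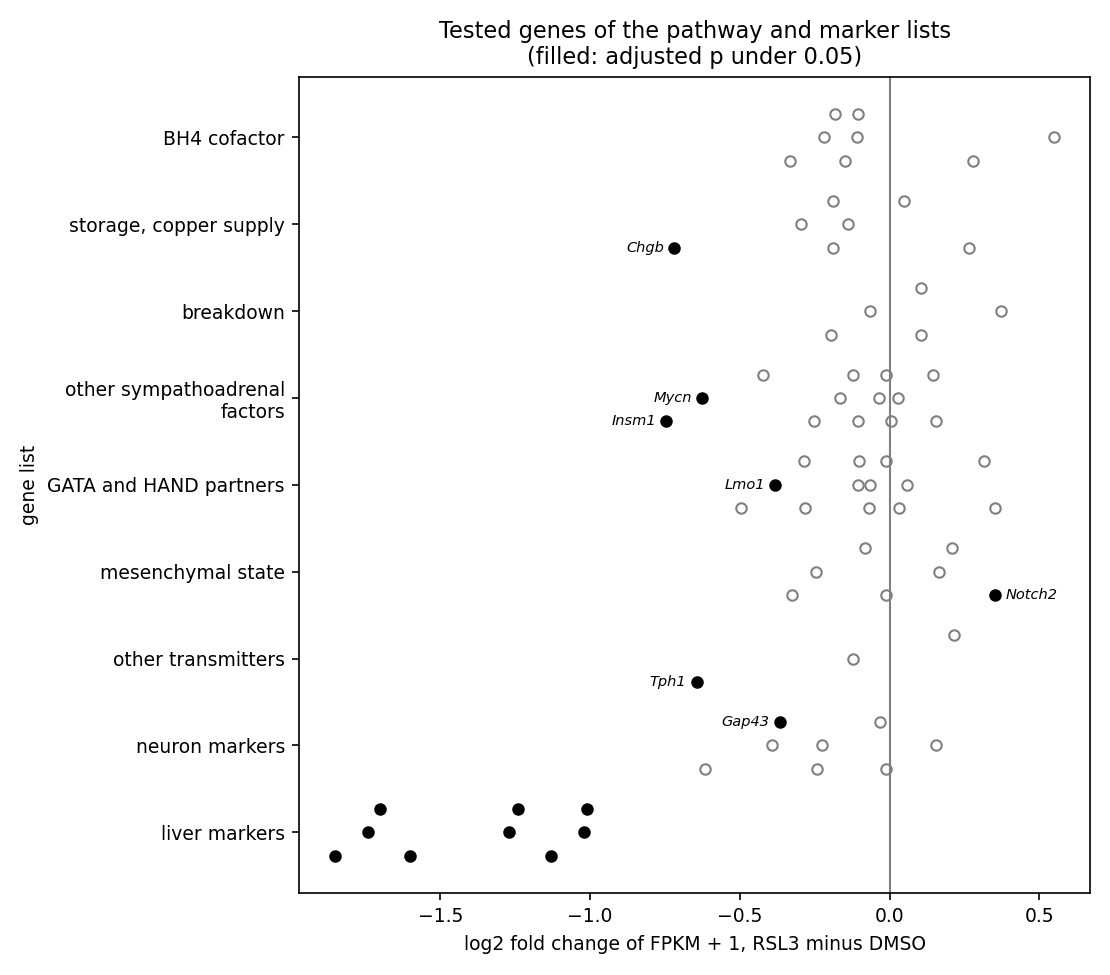
Log2 fold change of FPKM + 1, RSL3 minus DMSO, of every tested gene in the pathway lists and in the neuron and liver marker lists, 1 point a gene, filled where the adjusted p was under 0.05 and named outside the liver list. Most pathway genes lie between -0.5 and 0.5, the called ones are Chgb, Insm1, Mycn, Lmo1, Notch2 and Tph1, and all 9 liver points lie below -1.0.

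Genes of other cells that also use these factors were looked up. None of 6 mast cell markers had a row, nor did the erythroid factor Gata1. Of 5 T cell markers only Lck had a row (8.60 to 10.3 FPKM in RSL3 libraries, 10.5 to 11.5 FPKM in DMSO libraries), and of 5 heart markers only Nkx2-5. Of 6 erythroid markers 2 had a row, as had 2 of 6 glia markers, and no tested gene of these lists passed. The erythroid marker Hbb-bs, a globin gene, was too low to be tested. It had 0.12, 0.035 and 0 FPKM in RSL3 libraries 1 to 3, against 0.366, 0.591 and 0.557 FPKM in DMSO libraries 1 to 3. Its groups did not overlap, with RSL3 lower, which held for 19.6% of all tested mRNAs. The other listed erythroid marker, Epor, went the other way, also without overlap. Epor had 2.21, 2.39 and 1.96 FPKM in RSL3 libraries and 1.62, 1.58 and 1.60 FPKM in DMSO libraries (0.29, adjusted p = 0.0861 in limma). The part of erythroid RNA in the Dbh result was not tested. Neuron markers with a test numbered 8, of which Gap43, a growth cone protein gene, was lower (-0.37, adjusted p = 0.0181 in limma) and none was higher. Gap43 did not pass without DMSO replicate 1, 2 or 3 (adjusted p = 0.115, 0.0901 and 0.0851) nor without RSL3 replicate 3 (0.0783).

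Around the members in the genome, the nearest listed mRNA gene on either side gave 16 genes, of which 14 were tested and 1 was lower. This was Adamtsl2, 56.3 kb before Dbh on chromosome 2, at means of 1.03 FPKM in RSL3 libraries and 1.80 FPKM in DMSO libraries (-0.47, adjusted p = 0.0179 in limma). It did not pass without DMSO replicate 1, 2 or 3 (adjusted p = 0.0971, 0.0806 and 0.0903) nor without RSL3 replicate 3 (0.0799). Sardh, 5.19 kb after Dbh, had means of 14.1 FPKM in RSL3 libraries and 14.5 FPKM in DMSO libraries (-0.04, adjusted p = 0.866). For Slc18a2, Pdzd8 at 1.17 kb had means of 9.07 FPKM in RSL3 libraries and 9.89 FPKM in DMSO libraries (-0.12, adjusted p = 0.53).

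Within 100 kb of a member lay 6 lncRNA genes, and none passed. Over all 798 tested lncRNAs limma called 0 (0.0%), with 95 at an unadjusted p under 0.05. Hand2os1, which overlaps Hand2 on the opposite strand, had means of 3.50 FPKM in RSL3 libraries and 5.74 FPKM in DMSO libraries, without overlap (-0.67 on the log2(FPKM + 0.5) scale, adjusted p = 0.215). The library kit was stranded, but the counting is not stated to use strand, so reads of Hand2 and Hand2os1 may not be told apart. Of 3168 circRNAs, 1414 were named by coordinates, and 0 of these overlapped a member gene.

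By the same distance as between members, and among 6945 genes whose higher group mean reached 5 FPKM, the genes closest to Dbh over the 6 libraries were Sctr (0.20), Apoa2 (0.210) and Hist2h2ac (0.210). Sctr, the secretin receptor gene, had means of 3.87 FPKM in RSL3 libraries and 10.2 FPKM in DMSO libraries, and Apoa2 is one of the liver list. Closest to Slc18a2 were Gpt2 (0.030), Selenow (0.032) and Tmcc3 (0.034), of which the selenoprotein gene Selenow had means of 108 FPKM in RSL3 libraries and 147 FPKM in DMSO libraries. For the factors the closest were Ppp1r14b, Zfp598 and Mrpl20 to Hand2, Shf, Timm17b and Brsk1 to Phox2a, Cherp, Nfyc and Timm17b to Gata2, and Ccdc124, Sfswap and Hnrnpul1 to Gata3, at distances of 0.016 to 0.041.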

How the data were processed

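RNA of 6 N2a libraries was measured, 3 after RSL3 and 3 after DMSO. The deposited mRNA and lncRNA values are FPKM made by the authors. Tools named in the submitters' processing notes are HISAT2, cutadapt and StringTie 1.3.3, on build GRCm38, and the labels' protocols name a poly(A) module and a stranded kit. For the annotation release and any filter on low values, nothing was given in the sources used here. In every listed mRNA gene the larger group mean was at least 0.5 FPKM. FPKM carries no read depth, which stays unknown, so no counting intervals are given.

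The test was a two-sided one in limma 3.58.1 under R 4.3.3, RSL3 minus DMSO, with the variance trend on. Benjamini-Hochberg adjustment ran over all tested genes, at a threshold of 0.05. An mRNA was tested, as log2(FPKM + 1), where 3 or more of 6 libraries reached 1 FPKM, and a lncRNA, as log2(FPKM + 0.5), where 3 or more reached 0.5 FPKM. Fold changes are on these scales, which understate changes of low genes. Alternatives changed the pseudocount, filter, scaling, variance trend, replicate block, length and GC trends, and left out each library. Simulated data had the mRNA libraries' means and spread, with independent noise and no GC trend. Changes were planted only in genes with a mean of at least 3 FPKM. Of these, 96% of genes changed by 1.5 and 80% of genes changed by 0.8 (log2) were recovered. Of 189 calls, 13 were of genes with no planted change. Smaller changes, and changes of lower genes, were not covered.

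GENCODE M21 held 11600 of 11609 mRNA and 853 of 866 lncRNA identifiers, matched without their version. Promoters of all 8 members came from RefSeq (GRCm38.p6). The members, lists, tests and alternatives were chosen with earlier results of these data known. Named are all members, up to 4 passing genes of each pathway list with the smallest p, 8 genes given whether or not they passed, the nearest genes on either side, and the 3 closest in pattern; Adamtsl2, Sardh and Pdzd8 stand for the neighbours. Tubb3, Gap43, Lck, Nkx2-5 and Alb come from the marker lists and were picked as examples after values were seen. So were Stmn2, Elavl4, Snap25, Hbb-bs, Epor, Pbx3, Lmo4, Id1, Chga and Akr1b3. Some genes of the lists are not reported here and were left out of the list counts.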

Additional observations from a re-analysis of the deposited data

How the results depend on the processing

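With 3 libraries a group and FPKM without depth, small changes of low genes such as Th could not be resolved, and no counting error can be given. Of 285 alternative values of 22 results, 246 kept direction and side of the threshold, 27 were no longer past it, 6 newly passed and 6 turned in direction. Dbh, Chgb and Insm1 passed in all 15 of their alternatives, though Dbh entered the stricter filter only through its DMSO libraries. The 676 mRNAs past the threshold became 1269 once length and GC trends were removed, and 137 to 1276 when 1 library was left out (165, 143 and 137 without DMSO replicates 1, 2 and 3, 1276 and 187 without RSL3 replicates 1 and 3). The 2 lower members became 1 under the stricter filter (at least 5 FPKM), where Slc18a2 was not tested, 5 with length and GC trends removed, and 1 to 5 with 1 library left out. The 5 lower pathway genes became 2 to 9 with 1 library left out (3 without DMSO replicate 1, 2 without DMSO replicate 2 or 3, 9 without RSL3 replicate 1), and the 1 higher became 0 with a pseudocount of 0.1, 2 under median-ratio scaling, quantile normalization or removal of length and GC trends, and 0 to 2 with 1 library left out. Ldb1 turned to -0.0498 with length and GC trends removed. The lncRNA Gm38708, at 0.04 with all libraries, ranged from -0.11 to 0.25 over its alternatives (-0.0091 and -0.07 without DMSO replicates 2 and 3, -0.02 and -0.11 without RSL3 replicates 2 and 3), and Gm10602, at 0.07, ranged from -0.0392 without DMSO replicate 1 to 0.147 without DMSO replicate 3. Where an alternative left out libraries or genes, fewer were tested. The causes of the other changes were not tested.

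Same-numbered libraries deviated from their group means with correlations of -0.14, 0.05 and -0.06 across genes. Genes are not independent and RSL3 libraries also differed with GC content, so these values cannot show whether libraries were paired. The labels state no pairing. With the replicate block 253 mRNAs passed, 1 member was lower (Dbh, adjusted p = 0.012 in limma; Slc18a2 0.0773) and 0 pathway genes were higher (Notch2, adjusted p = 0.138, against 0.0477 without the block). The block also ended the calls of Lmo1 (0.0959), Gap43 (0.069) and Adamtsl2 (0.0773), and left 6 of 9 liver genes called lower.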

Other observations

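Of 13 genes that mark other transmitters, 3 had a row. Tph1, a tryptophan hydroxylase that starts serotonin synthesis and, like Th, uses BH4, had 1.57, 1.46 and 1.72 FPKM in RSL3 libraries 1 to 3, against 2.79, 3.42 and 2.92 FPKM in DMSO libraries 1 to 3. The groups did not overlap, and the log2 fold change was -0.64 (SE 0.093, adjusted p = 0.0111 in limma), which did not pass without DMSO replicate 2 (0.0583) or DMSO replicate 3 (0.0581). Its paralog Tph2 had 1.62, 2.93 and 3.55 FPKM in RSL3 libraries, against 3.32, 2.86 and 2.63 FPKM in DMSO libraries, which overlapped (-0.12, adjusted p = 0.755). Ache, which breaks down acetylcholine, differed by 0.22 (adjusted p = 0.52). Chat, the enzyme gene of acetylcholine synthesis, had no row.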
